A study of Mus musculus with 162 samples.

Results

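The type 2 cytokines and their receptors were followed in mice treated with MC903, a vitamin D analogue used to provoke atopic-dermatitis-like inflammation and itch. The group holds 9 genes, the cytokines Il4, Il13, Il5, Il31 and Il6, and the receptor chains Il4ra, Il13ra1, Il13ra2 and Il5ra. They were chosen by name from the 46078 Ensembl genes that each count list holds, and all 9 were found. The 5 cytokines and 4 receptors were measured by poly(A) RNA-seq in 61 libraries of cheek skin, and the receptors also in 56 libraries of trigeminal ganglion, the ganglion whose sensory neurons serve the cheek.

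All groups were adult male C57BL/6 mice given 20 µL of 0.2 mM MC903 in ethanol, or ethanol alone, once a day. In skin the uninjected wild-type groups held 4 MC903 and 4 ethanol libraries at day 1 (6 h after treatment), 3 and 2 at day 2, 3 and 3 at day 5, and 5 and 6 at day 8. Other day 8 skin came from wild-type mice injected with PBS (2 and 3) or with 250 µg of aGr1, an antibody that depletes Gr1-bearing cells such as neutrophils (4 and 4). It also came from BLT1.KO mice, labelled as lacking the leukotriene B4 receptor (3 and 3), and from TSLPR.KO mice, labelled as lacking the receptor for the keratinocyte cytokine TSLP (3 and 2). Day 12 was measured in TSLPR.KO mice (4 and 3). Ganglion groups held 4 and 4 libraries at day 1, 3 and 2 at day 2, 3 and 3 at day 5, 5 and 5 at day 8, 4 and 3 with PBS, 4 and 4 with aGr1, and 2 and 2 (day 8) and 4 and 4 (day 12) in TSLPR.KO mice. The labels do not say whether libraries of a group came from separate mice. The study's methods refer to a number of mice per condition and to replicate measurements from treated and control mice. Their text does not say which mouse each library came from. The p-values therefore measure the spread between these libraries, which may be technical.

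Counts on genes ran from 17431296 to 67342879 per skin library and from 15931871 to 62105901 per ganglion library. The 18 wild-type day 12 libraries were left out because their tissue markers went against the labels: 6 skin-labelled libraries held more Scn10a, a sensory neuron sodium channel, than Krt14, a basal keratinocyte keratin, and 7 ganglion-labelled libraries showed the opposite. This occurred in 0 of the libraries used. Crlf2, which encodes the TSLP receptor, had a median of 0.405 cpm (range 0.0691 to 1.34) in TSLPR.KO skin against 4.59 cpm (2.24 to 15.4) in wild-type skin. In ganglion the medians were 1.30 cpm (0 to 2.06) and 3.29 cpm (0.117 to 7.58), with overlapping ranges. Ltb4r1, which encodes BLT1, had a median of 7.14 cpm in the skin libraries labelled BLT1.KO and 9.97 cpm in wild-type skin, with overlapping ranges, and counts over a whole gene do not show whether a deleted part is missing. Every statement on BLT1.KO therefore refers to libraries with that label.

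Type 2 immunity is driven by IL-4 and IL-13, made by T helper 2 cells, group 2 innate lymphoid cells, basophils and mast cells. Both cytokines signal through IL-4Rα, which pairs with the common γ chain (Il2rg) to bind IL-4 or with IL-13Rα1 to bind either cytokine, and which activates STAT6. IL-13Rα2 binds IL-13 tightly and is best known as a decoy. IL-5 acts on eosinophils through IL-5Rα and the common β chain (Csf2rb), IL-31 acts on itch neurons through IL-31RA and OSMR, and IL-6 is a broad inflammatory cytokine that signals through gp130 and STAT3.

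Il4 (chr11:53602982-53618669, minus strand), Il13 (chr11:53631324-53634702, minus strand) and Il5 (chr11:53720794-53725106, plus strand) lie near one another on mouse chromosome 11 (GRCm38). Il4ra lies on chromosome 7 (chr7:125552120-125579474, plus strand). The promoters of the 3 clustered cytokine genes are shown because their counts differed widely at day 8 although they share a locus. That of Il4ra, added after its values were seen, is shown because the gene encodes the receptor chain shared by IL-4 and IL-13. Each line gives the 250 bases before the RefSeq start (GRCm38.p6), written 5′ to 3′ on the gene's own strand, with GGAAA or its reverse complement TTTCC, the core bound by NFAT factors, in capitals. For Il4 this is the most upstream start listed. The windows are chr11:53618666-53618915 for Il4, chr11:53634703-53634952 for Il13, chr11:53720544-53720793 for Il5 and chr7:125552021-125552270 for Il4ra.
Il4: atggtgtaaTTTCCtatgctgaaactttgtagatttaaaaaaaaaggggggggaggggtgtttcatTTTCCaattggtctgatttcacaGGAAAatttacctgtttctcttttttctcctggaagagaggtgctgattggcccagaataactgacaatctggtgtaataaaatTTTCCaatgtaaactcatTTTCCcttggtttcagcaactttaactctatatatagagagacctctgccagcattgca
Il13: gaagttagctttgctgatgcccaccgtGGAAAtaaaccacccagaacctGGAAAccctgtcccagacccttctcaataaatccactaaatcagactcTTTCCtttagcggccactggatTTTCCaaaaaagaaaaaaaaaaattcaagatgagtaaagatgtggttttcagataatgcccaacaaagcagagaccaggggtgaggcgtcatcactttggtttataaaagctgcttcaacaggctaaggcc
Il5: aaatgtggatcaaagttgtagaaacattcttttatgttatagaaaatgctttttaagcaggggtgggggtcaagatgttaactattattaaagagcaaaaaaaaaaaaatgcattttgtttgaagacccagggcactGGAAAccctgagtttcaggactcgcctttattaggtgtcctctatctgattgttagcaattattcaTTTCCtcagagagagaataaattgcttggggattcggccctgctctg
Il4ra: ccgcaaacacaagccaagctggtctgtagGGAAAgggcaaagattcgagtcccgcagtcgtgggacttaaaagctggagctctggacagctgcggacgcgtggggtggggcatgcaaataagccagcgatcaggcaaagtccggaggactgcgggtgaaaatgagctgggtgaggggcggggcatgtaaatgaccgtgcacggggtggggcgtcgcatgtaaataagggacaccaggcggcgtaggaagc

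The Il4 window held the core 5 times, Il13 4 times, Il5 2 times and Il4ra 1 time, and 55.6% of all 32851 promoter windows of this length held it at least once. GATA or TATC, the GATA factor core, occurred 1 time each in Il13 and Il5 and 0 times in Il4 and Il4ra, against 53.6% of all windows. TTCNNNNGAA, one spacing of the STAT6 element, occurred 1 time in Il4 and in none of the other 3, against 5.85% of all windows. These matches describe the letters of each window and were not tested for binding.

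The unit of level is cpm, which is the count of a gene after each library total on genes is set to 1000000. Fold changes were fitted by edgeR with TMM scaling and its quasi-likelihood test. The SE shown with them was derived from that test, as the absolute log2 fold change over the square root of its F statistic. A gene was called where its p, adjusted by the Benjamini-Hochberg method over all genes tested, was below 0.05 in skin or below 0.1 in ganglion. Where libraries are said not to overlap, the share of all genes doing so is not given. Such separation arises easily by chance in the smallest groups. Per kilobase of exon, the median level in ethanol-treated skin was 22.6 cpm per kb for Il13ra1, 5.44 for Il4ra, 1.17 for Il13ra2 and 0.692 for Il4. The other members lay lower on the same scale, at 0.142 for Il5ra, 0.0667 for Il13, 0.0239 for Il6, 0.00483 for Il5 and 0 for Il31. Skin is a mixture of cell types, and fewer cells of a type and less RNA per cell cannot be told apart in any of these values.

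At day 8 of MC903 in uninjected wild-type skin, 6 of the 7 members tested were higher than in ethanol-treated skin, against 23.4% of all genes called in either direction. They were the cytokines Il4, Il13 and Il6 and the receptors Il4ra, Il13ra1 and Il13ra2. The eosinophil receptor chain Il5ra was tested and not called, and Il5 and Il31 were too low to be tested. At day 5, 4 of 7 members were higher (Il6, Il4ra, Il13ra1 and Il13ra2), against 14.9% of all genes. At day 2 edgeR called 0 of 6 members and 0% of all genes, with 1 member (Il6) at an unadjusted p under 0.05 and 0 members by DESeq2. At day 1, 1 of 7 members was called, Il13ra1, and it was lower, against 13% of all genes.

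**Figure D1:**
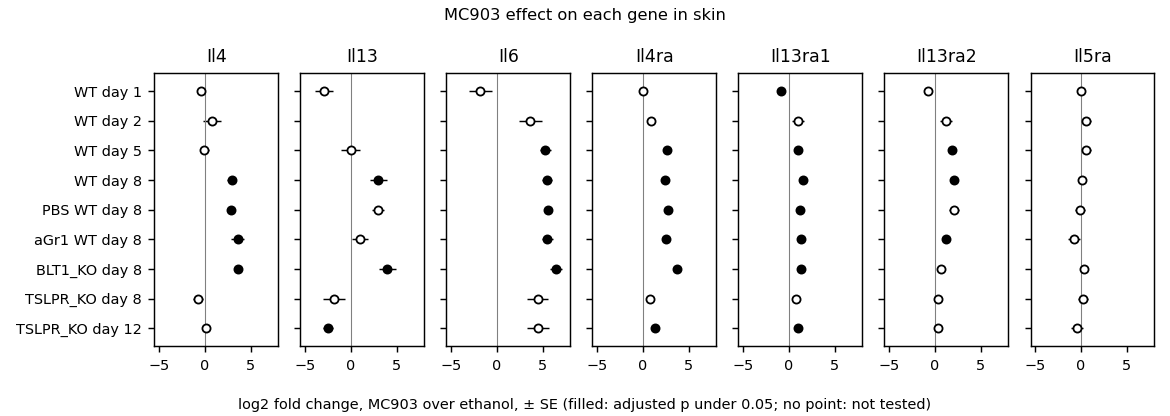
Log2 fold change of MC903 over ethanol for the 7 members with a test in most groups, by skin group, from edgeR. Bars are the SE and may be hidden by the point, and filled points have an adjusted p under 0.05. Il6 and Il4ra lie above 0 from day 5 on, whereas Il4 lies above 0 and is filled only in the 4 day 8 groups of wild-type and BLT1.KO skin.

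Il4, the defining type 2 cytokine, ranged from 0.555 to 1.34 cpm (median 1.06) in the 6 ethanol libraries of day 8. The 5 MC903 libraries held 8.94, 2.39 and 19.1 cpm (cohort A) and 2.46 and 7.47 cpm (cohort B), where A and B are 2 styles of label. All MC903 libraries lay above all ethanol libraries, and the spread among them was wide. The log2 fold change was 2.92 ± 0.50 (SE, adjusted p = 0.00115, edgeR), and it was 3.40 in cohort A alone (adjusted p = 0.0131) and 2.29 in cohort B alone (adjusted p = 0.0163).

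Before day 8, Il4 libraries of the 2 treatments overlapped. At day 5 they held 1.67, 1.31 and 0.995 cpm with MC903 and 1.15, 2.41 and 0.506 cpm with ethanol, a log2 difference of -0.05 (adjusted p = 0.961, edgeR). At day 1 the MC903 libraries held 0.571 to 0.918 cpm and the ethanol libraries 0.347 to 1.37 cpm. The change of the MC903 effect from day 5 to day 8, tested as an interaction, was 2.98 ± 0.817 on the log2 scale and was not called by edgeR (adjusted p = 0.0765), whereas DESeq2 gave an adjusted p of 0.00534. In that interaction 0 of 8 members were called by edgeR, 2 had an unadjusted p under 0.05 and DESeq2 called 1, against 1.62% of all genes.

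At day 2 a single library stood apart. MC903 replicate 3 of that day had 7.45 cpm of Il4, against 0.904 and 1.08 cpm in the other MC903 libraries and 1.37 and 1.87 cpm in the ethanol libraries. The same library held 253 cpm of Scn10a, while Scn10a was at most 9.94 cpm in any other skin library. Without it the log2 fold change of Il4 at day 2 was -0.74 (adjusted p = 0.688, edgeR) in place of 0.80 ± 0.97 (adjusted p = 0.947).

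Part of the Il4 count may belong to a neighbouring gene. In the RefSeq annotation (GRCm38.p6) Kif3a, a kinesin motor gene on the opposite strand, spans chr11:53565701-53604248. It so covers the last exon of an annotated Il4 transcript, Il4-202 (chr11:53602982-53603160). GENCODE M21, which lists that transcript, ends Kif3a before this exon, at 53601967. The strand setting of the counting is not given in the sources used here, so reads of the 2 genes over that exon cannot be told apart. Il4 was counted in every ganglion library, at 5.52 to 24.6 cpm (median 13.1), above the 0.0731 to 2.41 cpm (median 0.85) of ethanol-treated skin, and Kif3a was at 104 to 375 cpm in ganglion and 9.76 to 99.1 cpm in skin. Among the ganglion libraries, Il4 was at 8.11 to 24.6 cpm in the 33 from uninjected wild-type and TSLPR.KO mice at days 1 to 8 and at 5.52 to 7.99 cpm in the 23 from injected or day 12 mice.

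In uninjected wild-type skin at day 8, where Il4 was higher, Kif3a was lower, at 20.5 to 24 cpm with MC903 against 26 to 41.1 cpm with ethanol, with no overlap. It was also lower with PBS, at 15.5 and 16.3 cpm against 18.8 to 21.9 cpm. In aGr1 skin it went the other way, at 16.4 to 19.2 cpm with MC903 against 12.1, 9.76, 18.8 and 10.2 cpm with ethanol, which overlapped. The part of Kif3a reads in the low Il4 counts of ethanol-treated skin was not tested.

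**Figure D2:**
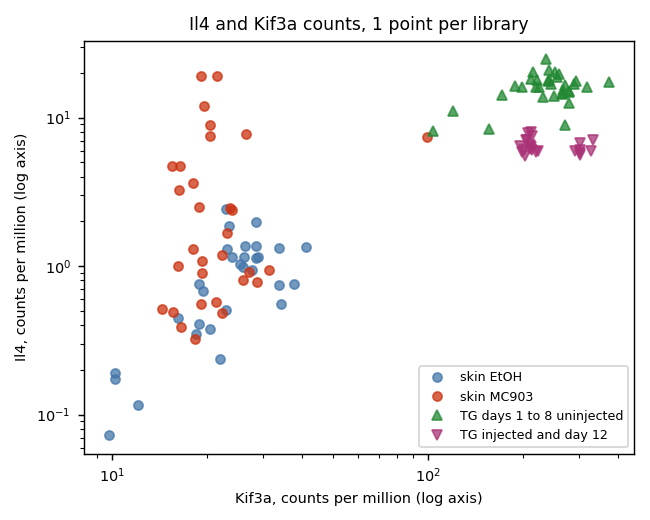
Il4 (vertical) against Kif3a (horizontal) in each library used, both in cpm on log axes, with 1 point per library and ganglion libraries as triangles. Ganglion libraries are high in both. The skin libraries with the highest Il4 (19.1 cpm) are not high in Kif3a, and the single skin library at 99.1 cpm of Kif3a is day 2 MC903 replicate 3.

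Il13, which shares its receptor with Il4 and drives mucus and barrier changes in epithelia, was far lower. It ranged from 0 to 0.145 cpm (median 0.044, at most 5 counts) in the ethanol libraries of day 8. The MC903 libraries held 0.355, 0.115 and 1.97 cpm (12, 4 and 71 counts) in cohort A and 0.0684 and 0.365 cpm (2 and 12 counts) in cohort B. The groups overlapped, and 1 library of cohort A (tagged skin4), which also had the highest Il4, stood above the rest. The log2 fold change was 2.99 ± 0.908 (adjusted p = 0.0307, edgeR) with all libraries. It was 1.95 (adjusted p = 0.141) without that library and was not called in cohort A alone (3.77, adjusted p = 0.0514) or cohort B alone (1.85, adjusted p = 0.53).

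At day 1 Il13 stood at 4, 3, 4 and 1 counts in the ethanol libraries and at 0, 0, 1 and 0 counts in the MC903 libraries, counts at or near the limit of what these libraries can show, and the difference was not called (adjusted p = 0.0738, edgeR). Days 2 and 5 gave 0 to 5 counts per library in both treatments.

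Il6 rose earlier than Il4. With ethanol it was at or near 0 in every group, with at most 15 counts in a library. At day 2 the MC903 libraries held 1.06, 0.861 and 0.324 cpm (30, 20 and 9 counts) against 0.111 and 0 cpm, which did not overlap, but the log2 fold change of 3.64 ± 1.24 was not called (adjusted p = 0.898, edgeR). At day 5 the MC903 libraries held 1.79, 1.86 and 1.23 cpm and the ethanol libraries 0.0657, 0.0401 and 0 cpm (log2 fold change 5.27 ± 0.617, adjusted p = 0.00187).

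At day 8 Il6 reached 1.21 to 6.77 cpm with MC903 against 0 to 0.262 cpm with ethanol (log2 fold change 5.49 ± 0.569, adjusted p = 2.18e-05, edgeR). Both cohorts gave the call alone, at 6.28 in A (adjusted p = 0.0033) and 4.92 in B (adjusted p = 0.00046). At day 1 Il6 was at 0 to 2 counts in 7 of 8 libraries, and 1 ethanol library (replicate 3) held 15 counts, or 0.676 cpm.

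Il5, the eosinophil growth factor, and Il31, the itch cytokine of T cells, were close to undetected. Il5 was at 0 in 34 of 61 skin libraries and reached at most 13 counts, in an MC903 library of BLT1.KO skin. Il31 was at 0 in 59 of 61 libraries. The 2 exceptions were an ethanol library (3 counts) and an MC903 library (5 counts) of cohort A at day 8, the latter again the library tagged skin4. A count of 0 allows up to 3 counts (counting error only), so changes within that range were not detectable at this depth. Il5 reached the filter in 3 skin comparisons and was called in none, at 0.86 with aGr1 (adjusted p = 0.542, edgeR), 3.30 in BLT1.KO skin (adjusted p = 0.328) and -2.17 in TSLPR.KO skin at day 8 (adjusted p = 0.519). In PBS skin it was at 0 in both MC903 libraries and at 2, 4 and 2 counts with ethanol, and in TSLPR.KO skin at day 8 at 0, 4 and 0 counts with MC903 and 7 and 5 counts with ethanol. These did not overlap, with MC903 lower.

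**Figure D3:**
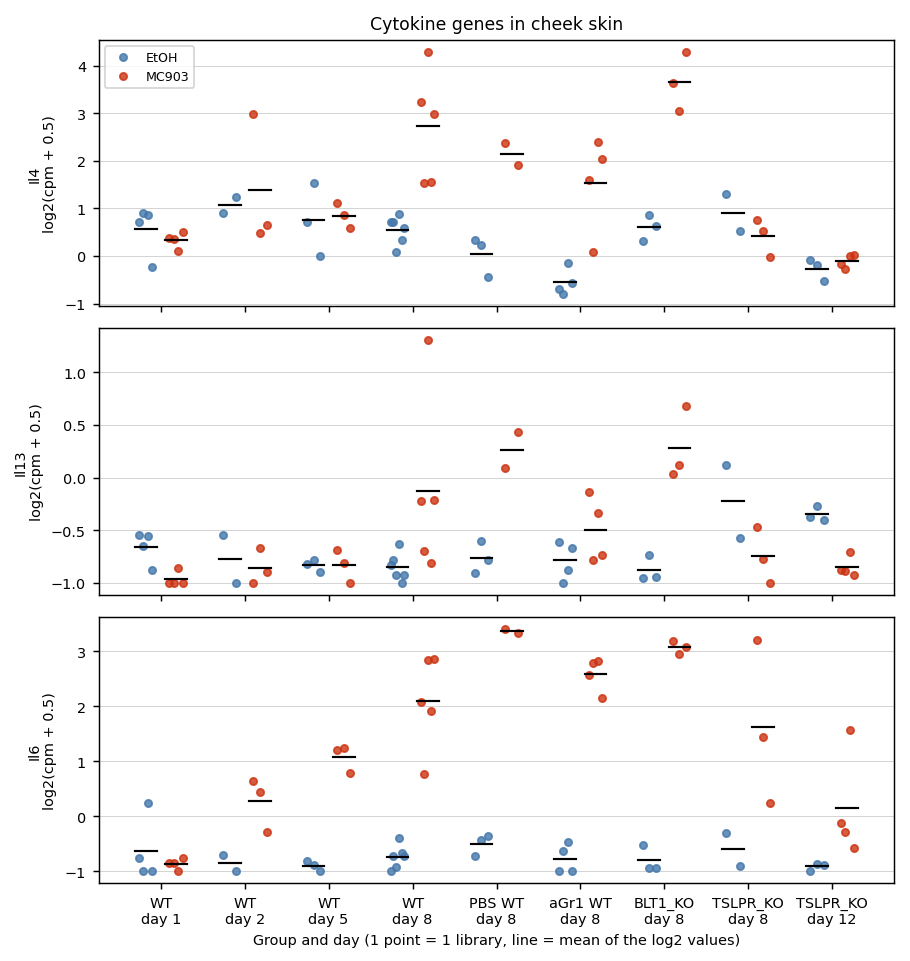
Il4, Il13 and Il6 in every skin library by group and day, as log2(cpm + 0.5), with ethanol in blue and MC903 in red. Each point is 1 library and each line the mean of the log2 values. Il6 stands above ethanol in all groups from day 2 on, and Il4 at day 8 in the wild-type and BLT1.KO groups.

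Among the receptors, Il4ra is the chain shared by IL-4 and IL-13. At day 8 it ranged from 32.7 to 57.7 cpm (median 40.4) in the ethanol libraries. The MC903 libraries held 195, 168 and 363 cpm (cohort A) and 154 and 208 cpm (cohort B), all far above ethanol, for a log2 fold change of 2.36 ± 0.201 (adjusted p = 3.92e-06, edgeR), or 5.15-fold. The value was 2.33 in cohort A alone (adjusted p = 0.00238) and 2.38 in cohort B alone (adjusted p = 8.57e-05).

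Il4ra was already higher with MC903 at day 5, when Il4 was not called. The day 5 libraries held 172, 134 and 102 cpm with MC903 and 27.5, 22.4 and 13.2 cpm with ethanol (log2 fold change 2.64 ± 0.248, adjusted p = 0.000683, edgeR). At day 1 the treatments overlapped, at 36.4 to 49.6 cpm with MC903 and 32.7 to 49.2 cpm with ethanol. At day 2 they overlapped as well, at 57.5, 55.9 and, in the library high in neuronal genes, 29.9 cpm against 21.3 and 30 cpm. The MC903 effect differed between days 5 and 1 by 2.62 ± 0.319 (interaction, adjusted p = 0.000149).

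Il13ra1, which completes the receptor for IL-13, moved in opposite directions at the first and later days. At day 1 the MC903 libraries held 56.1, 59.1, 46.7 and 62.7 cpm and the ethanol libraries 91.5, 121.2, 114.7 and 82.8 cpm, so every MC903 library was lower, by 0.90 ± 0.0857 on the log2 scale (adjusted p = 0.000435, edgeR). This call was lost when days 1 to 8 were fitted together. At day 2 the libraries overlapped, at 330.5, 183.7 and 63.8 cpm against 117.4 and 75.6 cpm. At day 5 MC903 libraries were higher, at 191.5, 204.2 and 164.2 cpm against 109.8, 114.1 and 55.9 cpm (0.95 ± 0.198, adjusted p = 0.0178), a call lost without MC903 replicate 1 or 2 (adjusted p = 0.0561 and 0.0755). The day 8 values were 192 to 235 cpm against 54 to 107 cpm (1.51 ± 0.127, adjusted p = 3.49e-06), and cohorts A and B alone gave 1.72 (adjusted p = 0.000537) and 1.22 (adjusted p = 0.00128).

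Il13ra2, the decoy chain, rose with MC903 from day 5 on. At day 5 it stood at 5.82, 5.20 and 4.62 cpm with MC903 and 1.54, 1.93 and 0.795 cpm with ethanol (1.82 ± 0.283, adjusted p = 0.00587, edgeR). At day 8 the ranges were 6.25 to 14 and 0.671 to 4.80 cpm, without overlap (2.08 ± 0.395, adjusted p = 0.00232), with 2.69 in cohort A alone (adjusted p = 0.0136) and 1.31 in cohort B alone (adjusted p = 0.0148). At days 1 and 2 the treatments overlapped for Il13ra2, at 0.415 to 1.26 against 0.506 to 1.76 cpm and at 3.49 to 11 against 1.21 and 4.32 cpm. Il5ra, at 0.0434 to 1.51 cpm over all skin libraries, was called in none of the 9 skin comparisons.

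From day 1 to day 5 the MC903 effect changed in 4 of 7 members, all towards higher, against 10.8% of all genes. These were Il4ra, Il13ra1 (1.86 ± 0.194, adjusted p = 4.4e-05, edgeR), Il13ra2 (2.53 ± 0.524, adjusted p = 0.00707) and Il6 (7.09 ± 1.55, adjusted p = 0.00973). Without ethanol replicate 3 of day 1, the value of Il6 was 4.68 and was not called (adjusted p = 0.105).

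**Figure D4:**
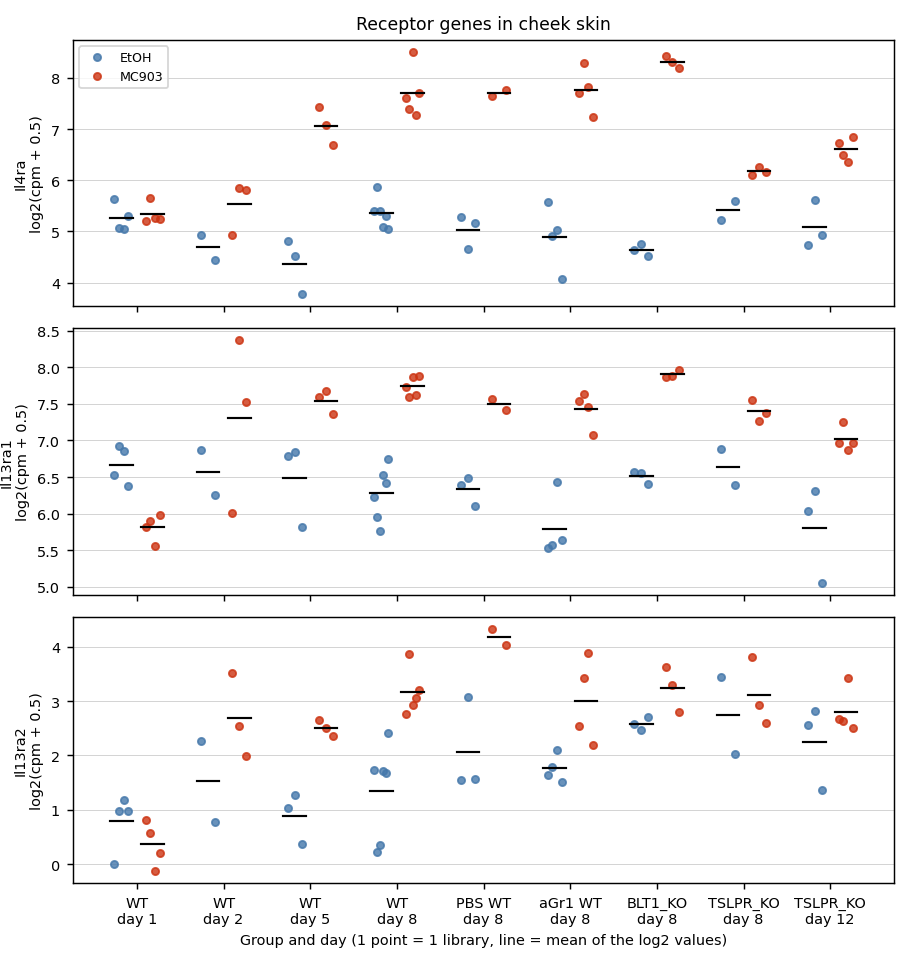
Il4ra, Il13ra1 and Il13ra2 in every skin library by group and day, as log2(cpm + 0.5), with ethanol in blue and MC903 in red. Each point is 1 library and each line the mean of the log2 values. Il4ra with MC903 lies at 102 cpm or more from day 5 on in wild-type and BLT1.KO skin and at 68.4 to 114.3 cpm in TSLPR.KO skin, above ethanol in each case.

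Markers of several cell types shifted in the same libraries, in which 23.4% of all genes were called. All 6 basophil markers (such as Mcpt8 and Cd200r3) were higher at day 8, with a summed level of 41.5 to 69.5 cpm with MC903 against 5.98 to 10.5 cpm with ethanol and none of them at 0 throughout. Of the mast cell markers 5 of 6 were higher (128.5 to 231.6 against 78.7 to 111.6 cpm), and of 7 CD4 T cell markers 4 were higher and 2 lower (19.2 to 36.5 against 12.5 to 20.2 cpm). Of the neutrophil markers 5 of 6 were higher (71.5 to 377 against 11 to 18.6 cpm). The 4 muscle markers were lower (1520 to 3000 against 2800 to 13200 cpm). Markers of innate lymphoid and T helper 2 cells did not move together. Of 6, 2 were higher and 2 lower, Gata3 being among the lower. Their median log2 fold change was 0.805 against -0.033 over all genes, but their sum was lower with MC903. It was 66 to 133.5 cpm against 137.9 to 163.6 cpm, and such a sum is weighted to the markers with the highest counts. Of 4 macrophage markers 3 were higher (417 to 907 against 200.1 to 408.9 cpm), and of 4 keratinocyte markers 2 were higher and 1 lower (11000 to 22300 against 5250 to 6950 cpm). At day 5, 3 of 6 basophil markers were already called higher, against 14.9% of all genes called. The part of these shifts in the cytokine and receptor values was not tested.

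The other genes of these pathways were taken from a list of 21 receptor partners and signalling genes, all tested at day 8. Of these, 12 were higher and 1 was lower, against 23.4% of all genes called in either direction. Their median log2 fold change was 0.57 against -0.03 over all genes. Csf2rb, the common β chain used by IL-5, rose by 2.78 ± 0.178 (adjusted p = 3.39e-07, edgeR), even though Il5ra itself was not called. The related β chain gene Csf2rb2 rose by 2.32 ± 0.178 (adjusted p = 1.6e-06, edgeR). Il2rg, the partner of Il4ra for IL-4, rose by 1.92 ± 0.279 (adjusted p = 0.000352). Stat3, the transducer of IL-6, rose by 1.2 ± 0.114 (adjusted p = 1.14e-05), and Osmr, the IL-31 receptor partner, by 1.44 ± 0.147 (adjusted p = 1.96e-05). The member that was lower was Gata3, the T helper 2 master regulator that keratinocytes also express (-1.02 ± 0.216, adjusted p = 0.00446). Stat6, the transducer of IL-4 and IL-13, was not called.

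A list of 22 genes known as targets of IL-4 and IL-13 held 19 that were tested at day 8. Of these, 12 were higher and 2 lower, against 23.4% of all genes called, and their median was 1.34. Chil3 and Chil4, chitinase-like proteins, rose by 6.85 ± 0.712 (adjusted p = 2.2e-05, edgeR) and 7.07 ± 0.78 (adjusted p = 3.71e-05). Arg1, the arginase of alternatively activated macrophages, rose by 2.88 ± 0.314 (adjusted p = 3.4e-05). Retnla, another marker of such macrophages, moved the other way (-2.20 ± 0.277, adjusted p = 0.000114), as did Clca1, a mucus gene (-3.30 ± 0.748, adjusted p = 0.00693). Chil3, Chil4 and Arg1 were already higher and Retnla already lower at day 5, when Il4 was not. Over the time course, the partner list had 0 higher and 7 lower at day 1, none called at day 2, and 5 higher and 1 lower at day 5. The target list had 0 higher and 6 lower, none called, and 3 higher and 2 lower. Of all genes 13%, 0% and 14.9% were called at these days.

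With PBS injection, 4 of 7 members were higher, Il4, Il6, Il4ra and Il13ra1, against 3.99% of all genes. Il4 stood at 4.70 and 3.27 cpm with MC903 and 0.757, 0.675 and 0.237 cpm with ethanol, with no overlap (2.85 ± 0.474, adjusted p = 0.0281, edgeR). This call was lost without MC903 replicate 1 or 2 or ethanol replicate 1. Il6 stood at 10.1 and 9.54 cpm against 0.103 to 0.277 cpm (5.59 ± 0.383, adjusted p = 0.00176), and Il4ra at 199 and 216 cpm against 24.7 to 38.3 cpm (2.69 ± 0.24, adjusted p = 0.00347). Il13ra1 was at 189 and 171 cpm against 68.6 to 89.5 cpm (1.19 ± 0.192, adjusted p = 0.0252), a call that was lost without MC903 replicate 1 or 2 or ethanol replicate 1 or 3. Il13 was at 0.568 and 0.849 cpm against 0.0344 to 0.159 cpm (2.98 ± 0.63, adjusted p = 0.0575) and Il13ra2 at 19.6 and 15.9 cpm against 2.41, 7.94 and 2.45 cpm (2.09 ± 0.54, adjusted p = 0.0993). Neither overlapped between treatments, and DESeq2 called both, for 6 members in all (adjusted p = 0.023 and 0.00694).

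With aGr1 injection, 5 of 8 members were higher, Il4, Il6, Il4ra, Il13ra1 and Il13ra2, against 32.6% of all genes. Il4 stood at 2.51, 0.553, 4.75 and 3.62 cpm with MC903 and 0.116, 0.0731, 0.407 and 0.174 cpm with ethanol, all MC903 libraries above all ethanol libraries (3.57 ± 0.686, adjusted p = 0.00431, edgeR). Il6 was at 3.92 to 6.60 cpm against 0 to 0.226 cpm (5.51 ± 0.594, adjusted p = 0.000213), and Il4ra at 150 to 310 cpm against 16.4 to 47.5 cpm (2.48 ± 0.298, adjusted p = 0.000375). Il13ra1 (1.26 ± 0.163, adjusted p = 0.000564) and Il13ra2 (1.17 ± 0.372, adjusted p = 0.0385) also rose, but the call of Il13ra2 was lost without any of 6 of the 8 libraries, MC903 replicates 2 and 3 and each ethanol library (adjusted p = 0.0596 to 0.0897). Il13 overlapped between treatments, at 2 to 9 counts against 0 to 4 counts (adjusted p = 0.392).

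The MC903 effect did not differ detectably between aGr1 and PBS mice for any member. edgeR called 0 of 8 members in that interaction, against 0.232% of all genes, with 1 member (Il5) at an unadjusted p under 0.05 and 0 by DESeq2. Against uninjected wild-type mice, edgeR called 0 of 8 and 4.56% of all genes, with 0 members at an unadjusted p under 0.05 and 0 by DESeq2. The summed neutrophil markers in aGr1 MC903 skin, 181 to 197 cpm, lay below the 301 to 399 cpm of PBS MC903 skin and within the 71.5 to 377 cpm of uninjected MC903 skin. They still lay above the 7.09 to 22.1 cpm of aGr1 ethanol skin. All 5 neutrophil markers tested were higher with MC903 there, against 32.6% of all genes called in either direction. All 6 basophil markers were higher with MC903 in aGr1 skin (62.4 to 69.9 against 8.44 to 16.6 cpm), and of 7 CD4 T cell markers 0 were higher and 4 lower (9.68 to 17.7 against 9.35 to 76.5 cpm).

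In the libraries labelled BLT1.KO, 5 of 8 members were higher, Il4, Il13, Il6, Il4ra and Il13ra1, against 28.6% of all genes. Il4 stood at 12, 7.76 and 19.1 cpm with MC903 and 0.742, 1.33 and 1.04 cpm with ethanol (3.61 ± 0.39, adjusted p = 0.000235, edgeR). Il13 stood at 0.524, 0.589 and 1.10 cpm (28, 29 and 67 counts) against 0.0148, 0.101 and 0.0204 cpm (3.99 ± 0.884, adjusted p = 0.0098). No MC903 library overlapped the ethanol libraries for either gene. Il6 was at 7.26 to 8.63 cpm against 0.0201 to 0.193 cpm (6.47 ± 0.643, adjusted p = 0.000155) and Il13ra1 at 232 to 250 cpm against 84.5 to 94.9 cpm (1.36 ± 0.125, adjusted p = 0.000109). Il13ra2 lay at 11.8, 9.37 and 6.49 cpm against 5.51, 5.05 and 5.99 cpm, without overlap, and was called by DESeq2 (adjusted p = 0.0214) but not by edgeR (0.69 ± 0.234, adjusted p = 0.058).

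Il4ra reached 343, 317 and 292 cpm in BLT1.KO skin, against 24.5, 26.4 and 22.5 cpm with ethanol (log2 fold change 3.66 ± 0.132, or 12.7-fold, adjusted p = 2.56e-06, edgeR). This effect exceeded that in uninjected wild-type skin by 1.34 ± 0.291 (interaction, adjusted p = 0.01). It was the 1 member of 8 called in that interaction, against 6.95% of all genes, and its adjusted p ran from 0.000393 to 0.0277 over the alternatives. Ethanol-treated BLT1.KO skin also lay below the 32.7 to 57.7 cpm of ethanol-treated uninjected wild-type skin at day 8. It lay within the ethanol ranges given above for uninjected wild-type skin at day 5 and for aGr1 skin. Muscle markers differed in BLT1.KO skin as well, at 16700 to 29000 cpm with ethanol and 2620 to 6850 cpm with MC903. Their part in the interaction was not tested.

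In TSLPR.KO skin at day 8, edgeR called 0 of 8 members, against 2.45% of all genes, with 3 members (Il6, Il4ra and Il13ra1) at an unadjusted p under 0.05 and 2 by DESeq2 (Il6 and Il13ra1). Il4 stood at 1.18, 0.948 and 0.481 cpm with MC903 and 1.97 and 0.936 cpm with ethanol, which overlapped (-0.71 ± 0.525, adjusted p = 0.584). Il6 still lay above ethanol in every library, at 8.71, 2.21 and 0.687 cpm against 0.311 and 0.0347 cpm (4.44 ± 1.15, adjusted p = 0.0905). Il4ra held 68.4, 76.4 and 70.7 cpm against 36.8 and 48 cpm, also without overlap, though its log2 fold change of 0.78 ± 0.228 was not called (adjusted p = 0.14, edgeR). Il13ra1 lay at 187.9, 154 and 164.7 cpm against 118.1 and 83.2 cpm (0.77 ± 0.232, adjusted p = 0.15). Il13 was at 6, 3 and 0 counts against 17 and 5 counts (-1.85 ± 1.19, adjusted p = 0.519), and Il13ra2 overlapped, at 5.53 to 13.5 cpm against 3.57 and 10.4 cpm (0.34 ± 0.466, adjusted p = 0.792).

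The difference of the MC903 effect between TSLPR.KO and wild-type skin at day 8 was -3.61 ± 0.86 for Il4 (adjusted p = 0.113, edgeR) and -1.57 ± 0.335 for Il4ra (adjusted p = 0.0742), and neither was called. edgeR called 0 of 8 members, against 0.177% of all genes, while 5 had an unadjusted p under 0.05 and DESeq2 called 2, Il4 (adjusted p = 0.00285) and Il4ra (adjusted p = 0.00268). Without 1 wild-type library, MC903 skin2 of cohort A, edgeR called both (adjusted p = 0.0404 and 0.0342). The direction was negative for both genes under every alternative, and over these the adjusted p of Il4 ran from 0.00285 to 0.648 and that of Il4ra from 0.00268 to 0.277. In the partner list, Csf2rb (-2.08 ± 0.333, adjusted p = 0.0178) and Csf2rb2 (-1.77 ± 0.305, adjusted p = 0.0302) had a smaller MC903 effect in TSLPR.KO skin, as did Alox15 (-3.71 ± 0.677, adjusted p = 0.0356) and Mgl2 (-2.44 ± 0.429, adjusted p = 0.0302) in the target list. Basophil markers summed to 12.4 to 23 cpm with MC903 and 7.73 to 14.2 cpm with ethanol in TSLPR.KO skin at day 8. Of 5 tested, 1 was higher, against 2.45% of all genes called.

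At day 12 in TSLPR.KO skin, 3 of 7 members were called, with Il4ra and Il13ra1 higher and Il13 lower, against 10% of all genes. Il4ra stood at 106.1, 89.9, 81.1 and 114.3 cpm with MC903 and 26, 48.2 and 29.9 cpm with ethanol (1.34 ± 0.193, adjusted p = 0.0035, edgeR), and Il13ra1 at 116.8 to 151.6 cpm against 32.8 to 78.8 cpm (0.98 ± 0.211, adjusted p = 0.0205), a call lost without MC903 replicate 1 or 2. Il13 was the reverse of wild-type day 8, at 2, 2, 5 and 1 counts with MC903 against 12, 13 and 12 counts with ethanol (-2.51 ± 0.518, adjusted p = 0.0177). This call was lost without MC903 replicate 1, 2 or 4 or ethanol replicate 1. Il4 overlapped, at 0.322 to 0.512 cpm against 0.192 to 0.450 cpm (0.15 ± 0.387, adjusted p = 0.848). Il6 lay at 0.171 to 2.46 cpm against 0 to 0.0504 cpm and was not called by edgeR (4.46 ± 1.23, adjusted p = 0.0505), whereas DESeq2 called it (adjusted p = 0.000723). Il13ra2 overlapped, at 5.17 to 10.2 cpm against 2.09 to 6.55 cpm (0.38 ± 0.334, adjusted p = 0.532).

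The partner and target lists were also counted in each group. Of 21 partners, 8 were higher and 0 lower with PBS, 9 and 3 with aGr1, 11 and 4 in BLT1.KO skin, 0 and 2 in TSLPR.KO skin at day 8, and 6 and 0 at day 12. Their median log2 fold changes were 0.50, -0.06, 0.53, -0.16 and -0.01 in that order. Of the targets, 4 of 18 tested were higher and 0 lower with PBS, 7 and 5 of 18 with aGr1, 8 and 7 of 19 in BLT1.KO skin, 1 and 3 of 18 in TSLPR.KO skin at day 8, and 4 and 6 of 19 at day 12. The median log2 fold change of the targets was 1.08 with PBS, 0.41 with aGr1, 0.59 in BLT1.KO skin, and -0.44 and -0.04 in TSLPR.KO skin at days 8 and 12, and that of all genes lay between -0.04 and 0.00 in these groups. The shares of all genes called in the same comparisons, given above, ran from 2.45% to 32.6%. Chil3 was the single target called higher in TSLPR.KO skin at day 8 (2.98 ± 0.527, adjusted p = 0.0196, edgeR), and at day 12 Chil4 (5.65 ± 0.95, adjusted p = 0.00703) and Arg1 (1.38 ± 0.283, adjusted p = 0.0172) were higher too. The comparisons of TSLPR.KO, BLT1.KO and aGr1 skin with uninjected mice share the same wild-type day 8 libraries.

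In the trigeminal ganglion, Il4ra and Il13ra1 were the receptors with appreciable levels, at medians of 5.38 and 2.94 cpm per kb, while Il5ra (0.153) and Il13ra2 (0.0678) lay far lower. MC903 on the cheek changed them little. With PBS injection, 2 of the 4 receptors were higher with MC903, against 3.36% of all genes. Il4ra stood at 43.7, 40.1, 47 and 39.1 cpm against 34.2, 32.6 and 33.3 cpm (0.34 ± 0.0722, adjusted p = 0.029, edgeR), and Il13ra1 at 12.9, 11.5, 12.6 and 12.9 cpm against 10, 9.19 and 9.64 cpm (0.37 ± 0.0909, adjusted p = 0.0578). For both genes the lowest MC903 library lay above the highest ethanol library. The Il4ra call was lost without ethanol replicate 2 (adjusted p = 0.164) or 3 (adjusted p = 0.13). Sensory neuron markers were also higher in these ganglia, with 4 of 7 called and a summed level of 3790 to 4440 cpm with MC903 against 3470 to 3540 cpm with ethanol. Their sums likewise did not overlap in the other groups in which Il4ra stood above ethanol, at 3590 to 4130 against 2750 to 3220 cpm at day 5, and in TSLPR.KO mice at 3480 to 4010 against 3160 to 3290 cpm at day 8 and 4300 to 4610 against 3480 to 3820 cpm at day 12. Where Il4ra overlapped, the median log2 fold change of these markers was -0.472 at day 1 and -0.121 at day 2. It was 0.255 at day 8 and 0.075 with aGr1. Where Il4ra did not overlap, it was 0.37 at day 5 and 0.304 with PBS. In TSLPR.KO mice it was 0.299 at day 8 and 0.342 at day 12. The part of these markers in the Il4ra values was not tested.

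In the other 7 ganglion comparisons edgeR called 0 receptors. At day 5, Il4ra stood at 34.6, 36.7 and 41.9 cpm with MC903 and 31.3, 21.1 and 26.1 cpm with ethanol, without overlap, but 0 of 4 receptors were called against 0.00823% of all genes (Il4ra adjusted p = 1). At day 8 the Il4ra ranges overlapped, at 27.5 to 45.2 cpm and 25 to 37.7 cpm, and 0 of 4 were called against 0.16% of all genes (Il4ra 0.24, adjusted p = 0.702). In each of these 2 comparisons Il4ra alone had an unadjusted p under 0.05, and DESeq2 called 0.

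At day 12 in TSLPR.KO ganglion, Il4ra stood at 49.7, 42.8, 43.3 and 41.4 cpm with MC903 and 36.9, 35.9, 36.2 and 33.6 cpm with ethanol, without overlap (0.34 ± 0.0882, adjusted p = 0.3, edgeR). Here 0 of 4 receptors were called, against 0.304% of all genes, and Il4ra was the 1 at an unadjusted p under 0.05 and the 1 called by DESeq2. Libraries with the same replicate number deviated together in this group, and with the replicate block Il4ra was called (0.34, adjusted p = 0.0522). With aGr1, edgeR called 0 of 4 receptors against 1.88% of all genes. The uninjected day 1 and day 2 comparisons gave 0 of 4 each and the TSLPR.KO day 8 comparison 0 of 3, each against 0% of all genes. In these last 4 comparisons 0 receptors had an unadjusted p under 0.05 and 0 were called by DESeq2.

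**Figure D5:**
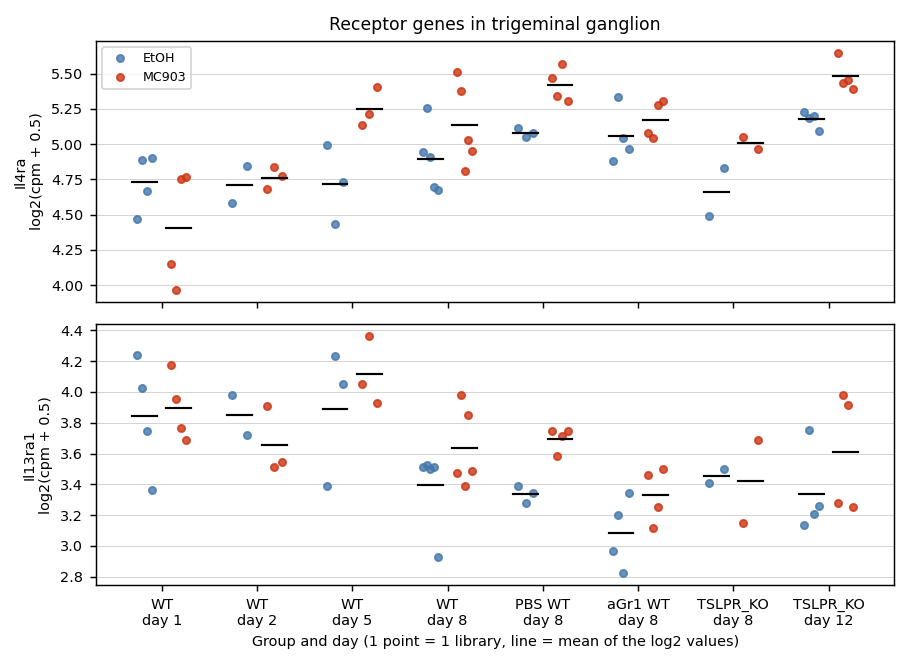
Il4ra and Il13ra1 in every trigeminal ganglion library by group and day, as log2(cpm + 0.5), with ethanol in blue and MC903 in red. Each point is 1 library and each line the mean of the log2 values. All MC903 libraries lie above all ethanol libraries for Il4ra at day 5, with PBS and in both TSLPR.KO groups, and for Il13ra1 with PBS. Of these differences edgeR called only those with PBS.

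Some receptor partners were called in the ganglion. Il31ra and Osmr, the 2 chains of the IL-31 receptor, were both called higher in 4 comparisons, named after their values were seen. At day 8 they rose by 1.30 ± 0.105 (adjusted p = 8.98e-05, edgeR) and 0.78 ± 0.113 (adjusted p = 0.0245). With PBS they rose by 1.15 ± 0.0846 and 0.62 ± 0.0892, with aGr1 by 1.23 ± 0.0971 and 0.89 ± 0.101, and in TSLPR.KO mice at day 12 by 0.79 ± 0.0784 and 0.61 ± 0.0747. Socs3, the feedback inhibitor of STAT3 signalling, rose by 1.0 ± 0.162 at day 8 (adjusted p = 0.0321) and by 1.44 ± 0.123 with PBS. In all, 3 of 21 partners were called at day 8, 5 with PBS, 5 with aGr1 and 3 in TSLPR.KO mice at day 12, all higher. The shares of all genes called in these comparisons were 0.16%, 3.36%, 1.88% and 0.304%.

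Across the 61 skin libraries, the genes whose log2(cpm + 0.5) followed each member most closely were found among 17640 genes by Pearson's r, as a description over libraries that share groups and treatments. For Il4 these were Angpt2 (0.86), Ccn3 (0.818) and Amigo3 (0.814). For Il6 they were Il19 (0.947), an IL-10 family cytokine, Hdc (0.924), which makes histamine, and Il24 (0.918). For Il4ra they were Fam83a (0.956), Rps6ka4 (0.94) and Pmaip1 (0.939), and for Il13ra1 Riok3 (0.919), Stat3 (0.906) and Rgs20 (0.905). The closest gene to Il13 was Batf2 (0.813), to Il13ra2 Casp4 (0.816) and to Il5ra Tmed8 (0.692). Among the members themselves, Il6 and Il4ra had the highest r (0.87) and Il4 and Il13 had 0.692.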

How the data were processed

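Counts of reads per Ensembl gene, one list per library, were deposited by the authors as raw values without normalization. Per the labels and the study's methods, RNA was poly(A)-selected, reads were mapped to mm10 with Bowtie2 and TopHat, and htseq-count assigned them to genes. Which annotation release and strand setting were used is not given in the sources used here. The tally lines for unassigned reads (6.15% to 19.0% of a library's reads on no gene) were left out of totals and tests.

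The 9 members, the partner, target and marker lists and the tests were chosen with earlier results of these data known. The text covers the members in skin, the receptors in ganglion, and 4 partners and 4 targets by a fixed rule. These are the 4 of each list with the smallest p among those called in uninjected wild-type skin at day 8. Other partners and targets, among them Il2rg, Gata3, Stat6, Socs3, Clca1, Alox15 and Mgl2, fall outside that rule. They were picked with their values known. Symbols and positions came from GENCODE M21 (45229 of 46078 identifiers matched) and promoters from RefSeq. The cpm values use library totals without TMM. Each comparison was fitted on its own libraries, on genes reaching 10 counts summed over those libraries, with edgeR 4.0.16 in R 4.3.3 (TMM, quasi-likelihood F test), with a cohort term at day 8 of uninjected wild-type mice and Benjamini-Hochberg adjustment. The thresholds, 0.05 in skin and 0.1 in ganglion, follow the study's methods. Interactions had an intercept for each group and cohort. Alternatives were RLE size factors, DESeq2 1.42.0, filterByExpr, no filter, a replicate block, each library left out, each cohort alone, no cohort term, cohort B as the wild-type side, and 1 fit over days 1 to 8. One further alternative, ganglion day 1 without 2 MC903 libraries low in neuronal markers, was chosen after seeing the data. The fits were tested on simulated data with large planted changes in well-counted genes. Those settings do not cover genes with few counts, such as Il13, or small changes, such as those in ganglion.

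Whether equal replicate numbers pair libraries was checked by the correlation of their deviations from the group means across genes. Every pair exceeded 0.1 in ganglion at day 5 (0.157 to 0.363 over 3 pairs) and in TSLPR.KO ganglion at day 12 (0.234 to 0.628 over 4 pairs). The pairing there comes from the data and not from the labels.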

Additional observations from a re-analysis of the deposited data

Results flagged for a closer look

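Single libraries stood apart from the rest of their group in the following values. The rule was Dixon's gap ratio, and groups of 2 or 3 libraries were too small to be flagged. For normally distributed values chance alone flags about 1 in 20 groups. A gene at 0 in all other libraries, such as Il31 here, is flagged by the form of the ratio. In skin of uninjected wild-type mice at day 8, the MC903 library tagged skin4 held 1.97 cpm of Il13 (others at most 0.365), 0.139 cpm of Il31 (others 0) and 363 cpm of Il4ra (others at most 208), and the ethanol library tagged skin6 held 57.7 cpm of Il4ra (others at most 41.6). At day 1, ethanol replicate 3 held 0.676 cpm of Il6 (others at most 0.092) and MC903 replicate 2 held 49.6 cpm of Il4ra (others at most 38.0). In aGr1 skin, ethanol replicate 3 held 86 cpm of Il13ra1 (others at most 49.2). In TSLPR.KO skin at day 12, MC903 replicate 3 held 2.46 cpm of Il6 (others at most 0.412) and 10.2 cpm of Il13ra2 (others at most 5.84).

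In ganglion, Il13ra1 was at 7.12 cpm in cohort B ethanol replicate 3 at day 8 (others at least 10.8) and at 13 cpm in TSLPR.KO ethanol replicate 2 at day 12 (others at most 9.06). Il13ra2 was at 0.997 cpm (34 counts) in cohort B ethanol replicate 2 at day 8 and at 0.58 cpm (11 counts) in aGr1 MC903 replicate 1, which also held 0.685 cpm (13 counts) of Il5ra.

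The MC903 effect differed between groups by an interaction test for these members. Il4ra rose more in BLT1.KO than in wild-type skin at day 8, by 1.34 on the log2 scale. From day 1 to day 5 the effect grew by 7.09 for Il6, 2.62 for Il4ra, 1.86 for Il13ra1 and 2.53 for Il13ra2.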

How the results depend on the processing

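For the 35 member calls, 500 values were computed under alternatives. Of these 455 kept the call, 45 lost it and 0 changed direction. RLE size factors and DESeq2 lost 0 of 35 calls each, leaving out libraries 35 of 296 and the replicate block 6 of 35. Some counts of members called moved. With 1 fit over days 1 to 8, day 1 gave 0. With the replicate block, skin day 2 gave 2 (Il4ra and Il13ra1), PBS skin 2, TSLPR.KO skin 1 at day 8 and 0 at day 12, and TSLPR.KO ganglion at day 12 gave 1. Outside the ganglion groups in which libraries deviate in pairs, equal numbers are shared labels only. The block also lost Il13 at day 8 (adjusted p = 0.0644, edgeR) and changed no other call of a member. With no filter on counts, TSLPR.KO skin at day 8 gave 1 and its difference from wild-type 1. DESeq2 called 6 in PBS skin, 6 in BLT1.KO skin, 4 in TSLPR.KO skin at day 12, 2 in TSLPR.KO skin at day 8, 1 in TSLPR.KO ganglion at day 12, 2 in the TSLPR.KO difference and 1 in the difference of day 8 from day 5.

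Leaving out 1 library at a time, members called ranged over 2 to 6 in PBS skin, 0 to 1 in TSLPR.KO skin at day 8, 1 to 4 at day 12, 0 to 2 in PBS ganglion, 0 to 2 in the TSLPR.KO difference and 0 to 1 in the difference of day 8 from day 5. The ranges were 3 to 4 at day 5, 5 to 6 at day 8, 4 to 5 with aGr1 and 3 to 4 in the difference of day 5 from day 1, and in the other comparisons no count moved. The cause of these shifts was not tested. Low counts limit Il13, Il5, Il31 and, with ethanol, Il6.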

Other observations

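The cytokine members were also counted in the ganglion, outside the rule of the report. Il6 was higher with MC903 in PBS ganglion by 3.58 on the log2 scale (adjusted p = 0.0832, edgeR) and was called in no other ganglion comparison. Il4ra lay at 15.1 and 17.2 cpm in the 2 day 1 ganglion MC903 libraries that were low in neuronal markers, below the 21.6 to 29.4 cpm of the ethanol libraries of that day, and 0 receptors were called with or without these libraries. The 4 ethanol skin libraries with the lowest Kif3a, at 9.76 to 12.1 cpm, were also the 4 with the lowest Il4, at 0.0731 to 0.192 cpm. They were aGr1 replicates 1, 2 and 4 and TSLPR.KO day 12 replicate 3, and were picked after their values were seen. Over all 61 skin libraries used, Pearson's r of Il4 with Kif3a was 0.244. The part of the groups in this was not tested.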
